A study of Tupaia belangeri with 6 samples.

Results

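NPDC1-AS-1, CELF2-AS-3, DNAJC6-AS-2, BMERB1-AS-3 and FTH1-AS-5 are 5 transcripts that the tree shrew annotation names as antisense to a protein-coding gene. They are 5 of 22595 antisense-named features among 83605 features, and were taken by name because they were higher in ALP than in control libraries of these same data. Their ALP and control values are therefore given as a description, without a test and as support for nothing. The hippocampus of naturally aging tree shrews (TSs, Tupaia belangeri) was profiled by snRNA-seq, which counts RNA molecules, as unique molecular identifiers (UMIs), in single nuclei. There were 3 TSs with Alzheimer's-like pathology (ALP), selected among old animals by a pipeline maze, and 3 age-matched control TSs, and no transgene or drug is named for either group. Each animal gave 1 library, and sex was not given per library, so that sex and group cannot be told apart here.

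An antisense transcript is copied from the DNA strand opposite to that of the gene it is named after, the sense gene, and such RNAs often overlap the sense RNA or start near its promoter. Many stay in the nucleus, and both parallel and opposite changes of sense and antisense RNA are known for other genes. NPDC1 encodes a neuronal membrane protein linked to the control of proliferation, CELF2 an RNA-binding regulator of splicing, and DNAJC6 auxilin, which uncoats clathrin vesicles with HSPA8. BMERB1 encodes a small protein with a bMERB domain, a fold that binds RAB GTPases, and FTH1 the heavy chain of ferritin, the iron store that oligodendrocytes hold in large amounts.

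The libraries held 37603 barcodes and 19182981 to 35898940 UMIs each, of which 28239 nuclei (14390 control and 13849 ALP) passed limits of 200 to 2500 genes and 5% mitochondrial UMIs. Control 2 kept 53.7% of its barcodes, the lowest share, and gave 1616 nuclei against 3927 to 7023 in the other libraries. Levels are UMIs scaled to equal library and class sums (CPM, UMIs per 1000000 UMIs), and no transcript lengths were at hand, so levels are not compared between genes. Clusters were made without any feature named after the 5 genes and called by markers, for example Oligo-like (oligodendrocyte), Gran-like (granule neuron), Pyra-like (pyramidal neuron) or InN-like (inhibitory neuron). The Oligo-like clusters carried MOG and ST18, while MOBP was at 0 and MBP and MAG were near 0 in all nuclei. GAD2 was at 0 in the InN-like clusters, where SST and ADARB2 were found. A further class, the other excitatory nuclei, was named by weak markers. SYT1 was found in 64.3% of its nuclei against 44.8% elsewhere and SLC17A7 in 11.3% against 9.28%. TBR1 was found in 4.25% against 4.33%, and NRGN was at 0.

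The sense genes themselves were unevenly counted. NPDC1 and FTH1 were listed at 0 UMIs in every barcode of the 6 libraries, which allows up to 0.0190 CPM by counting error alone, and CELF2 had 123 UMIs in all. DNAJC6 held 37843 UMIs and BMERB1 26653. Features with the stem of a sense gene in their name took the place of the others, with 438052 UMIs for CELF2li1 and 36994 for FTH1li4. Beside these, NPDC1-AS-1 held 58819 UMIs, CELF2-AS-3 11681, BMERB1-AS-3 2830, DNAJC6-AS-2 924 and FTH1-AS-5 154. A sense gene could thus be set beside its antisense feature under its own name for DNAJC6 and BMERB1, and under a related name for CELF2 and FTH1. For NPDC1-AS-1 no sense count was at hand.

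Antisense-named features together took 5.93% to 8.58% of all UMIs in control and 4.58% to 5.23% in ALP libraries, so their summed level was lower in every ALP library. The 5 features took 0.486% to 0.619% of antisense UMIs in control and 1.60% to 3.03% in ALP libraries. Over 9 classes, 37 antisense-named features and class pairs were called higher in ALP and 440 lower by edgeR, at a Benjamini-Hochberg adjusted p under 0.05 and a log2 fold change over 0.25 in size. In the sum of all kept nuclei edgeR called 0 of 22755 features, with 5328 at an unadjusted p under 0.05, while DESeq2 called 1733. Calls in single classes turned on single libraries, since in Oligo-like nuclei 572 features were called with all libraries, 3 without ALP 1, 3 without ALP 3 and 10 without control 3.

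In the sum of all kept nuclei the 3 ALP libraries lay above the 3 control libraries for each of the 5 features. Such a separation was found in 5.50% of all features tested, and it is what the features were taken for. NPDC1-AS-1, the most abundant, was at 375, 243 and 485 CPM in control 1, 2 and 3 and at 862, 715 and 1273 CPM in ALP 1, 2 and 3. CELF2-AS-3 was at 37.0, 30.9 and 27.1 CPM in control and 69.4, 64.7 and 63.1 CPM in ALP libraries. DNAJC6-AS-2 was at 1.36, 1.68 and 2.66 CPM in control and 11.4, 9.44 and 9.41 CPM in ALP libraries. Of these, CELF2-AS-3 varied least within a group in proportion to its level. BMERB1-AS-3 was at 10.7, 11.99 and 3.82 CPM in control and 34.4, 21.5 and 37.1 CPM in ALP libraries. FTH1-AS-5 was at 0.584, 0.240 and 0.532 CPM in control and 2.46, 1.17 and 5.47 CPM in ALP libraries, and rested on 16 control and 94 ALP UMIs. ALP 2 was the lowest ALP library for NPDC1-AS-1, BMERB1-AS-3 and FTH1-AS-5.

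The log2 fold changes of the edgeR fit, which carry its TMM library factors and so differ from ratios of CPM, were 1.60 ± 0.30 (SE, n = 3 and 3) for NPDC1-AS-1, 1.27 ± 0.16 for CELF2-AS-3 and 2.61 ± 0.33 for DNAJC6-AS-2. BMERB1-AS-3 had 2.06 ± 0.42 and FTH1-AS-5 2.82 ± 0.67. In such sums more nuclei of a class and more RNA per nucleus cannot be told apart. With 8 classes given equal weight, the log2 ratio of the group means of CELF2-AS-3 was 0.65 against 1.05 in the sum. Control 3, for example, had 51 Pyra-like nuclei against 467 to 637 in the ALP libraries.

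**Figure D1:**
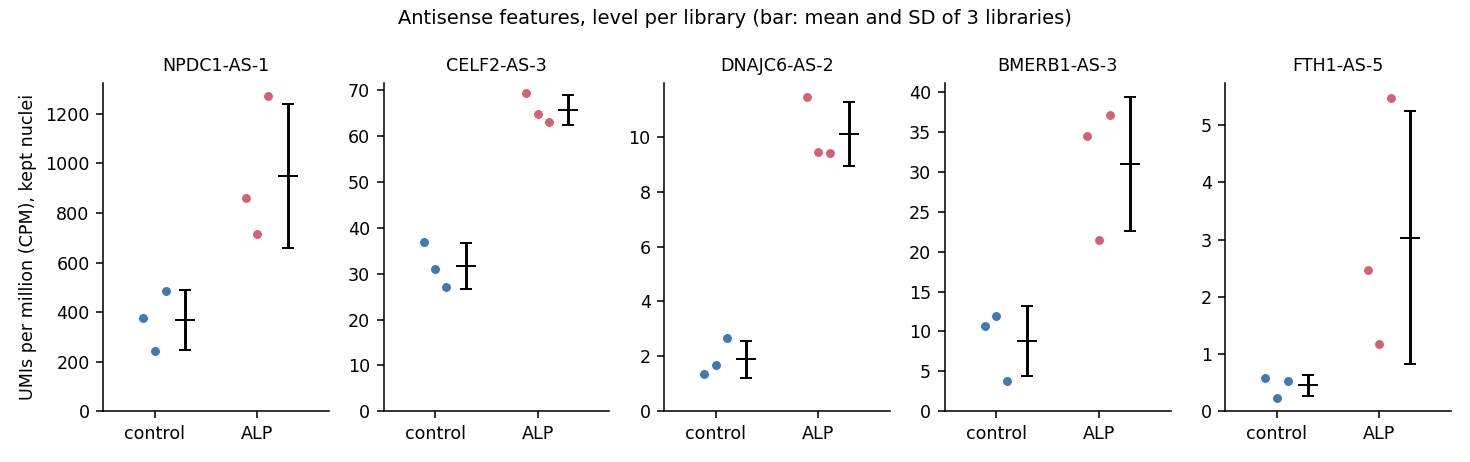
CPM of each antisense feature in the sum of all kept nuclei, 1 point per library, with the mean and SD of the 3 libraries of a group as a bar beside them. The 3 ALP points lie above the 3 control points in each panel, for NPDC1-AS-1 from 715 to 1273 against 243 to 485 CPM.

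Across 9 classes the 5 features gave 45 feature and class pairs, of which 24 passed the filter on low counts and 9 passed the thresholds above. Over all features, 1.26% of the pairs of feature and class tested passed in either direction. A pair that passed the filter through its ALP counts had to differ, so these counts describe how the features were chosen. Oligo-like nuclei held 4 of the 9 pairs (NPDC1-AS-1, DNAJC6-AS-2, BMERB1-AS-3 and FTH1-AS-5), where 2.00% of the features tested and 1.33% of the antisense-named ones were called higher. In these nuclei the 3 ALP libraries lay above the 3 control libraries in 9.46% of the features tested. OPC-like nuclei held 2 pairs (background 0.410%), and Gran-like nuclei (0.336%), Micro-like nuclei (0.458%) and the other excitatory nuclei (0.440%) held 1 each. Without ALP 1 or without ALP 3 only 1 of the 9 pairs was left, and 3 pairs were found without control 3.

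**Figure D2:**
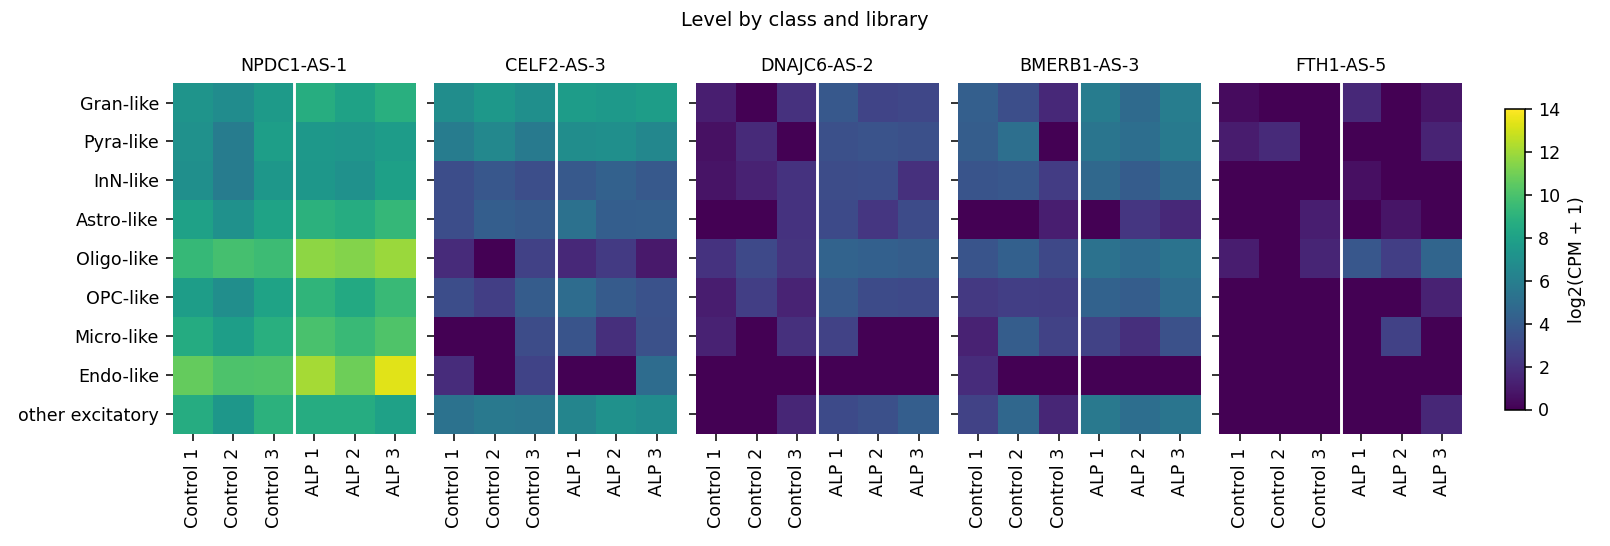
Colour map of log2(CPM + 1) of each antisense feature, with classes of nuclei in rows, the 6 libraries in columns and a white line between control and ALP. NPDC1-AS-1 is highest in Endo-like and Oligo-like nuclei, CELF2-AS-3 in Gran-like and Pyra-like nuclei, and FTH1-AS-5 is at 0 in most other squares, with up to 5.42 CPM in Micro-like nuclei of ALP 2.

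NPDC1-AS-1 was found in every class and was highest in Endo-like and Oligo-like nuclei. Averaged over the 6 libraries it was at 3495 CPM in Endo-like nuclei and 2014 CPM in Oligo-like nuclei, followed by Micro-like (656 CPM), OPC-like (378), Astro-like (370), Gran-like (270), Pyra-like (162) and, last, InN-like nuclei (150). Within libraries the neuronal classes (Gran-like, Pyra-like and InN-like) averaged 194 CPM and the glial classes (Astro-like, Oligo-like, OPC-like and Micro-like) 855 CPM. The difference of neuronal minus glial was -660 ± 462 CPM (SD, n = 6), and glial was higher in 6 of 6 libraries. The exact sign-flip permutation test over libraries, 2-sided, gave p = 0.0312, the smallest that 6 libraries allow, and 0.0781 after adjustment over the 5 features, so the order did not pass the threshold. Endo-like exceeded Oligo-like nuclei in 5 of 6 libraries, with an exact permutation p of 0.156 (0.456 adjusted), so their order did not pass the test. Of the other neighbours in this order, Oligo-like exceeded Micro-like nuclei in 6 of 6 libraries, whereas OPC-like and Astro-like nuclei differed by less than their spread, at 8.28 ± 56.4 CPM.

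Oligo-like nuclei held 53.0% of the NPDC1-AS-1 UMIs. There its level was 666, 931 and 783 CPM in control and 3172, 2674 and 3860 CPM in ALP libraries, a log2 fold change of 2.12 ± 0.24. The summed Endo markers of these nuclei, low throughout, were 56.5 to 64.7 CPM in control and 47.7 to 55.7 CPM in ALP libraries. Of these 6 markers 3 had a higher mean in ALP, and their part in this result was not tested. The groups were also apart in Endo-like nuclei, the smallest of the 9 classes. In Endo-like nuclei NPDC1-AS-1 was at 1661, 1103 and 1118 CPM in control and 4500, 1933 and 10653 CPM in ALP libraries. ALP 1 had 28 Endo-like nuclei, and 1 nucleus of ALP 3 alone held 524 UMIs of NPDC1-AS-1. With nuclei of 10 or more UMIs of the feature left out, Endo-like levels were 452, 421 and 693 CPM in control and 1507, 838 and 941 CPM in ALP libraries, still without overlap. Oligo-like levels in the same setting were 630, 931 and 775 CPM and 2539, 2192 and 3046 CPM, above the Endo-like level in every library. The nuclei of 10 or more UMIs, 40 of 502 in the Endo-like class, thus decided which of these classes came first.

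In Gran-like nuclei NPDC1-AS-1 was at 148, 112 and 199 CPM in control and 429, 270 and 463 CPM in ALP libraries. The 6 Oligo markers, summed, moved with it there, from 200 to 576 CPM in control to 646 to 852 CPM in ALP Gran-like nuclei, with 3 of the 6 higher in every ALP library and MBP and MOBP at 0. Their part in this result was not tested. In Micro-like nuclei the feature was at 391, 234 and 456 CPM in control and 1028, 707 and 1120 CPM in ALP libraries. There the sum of the same markers was lower in the ALP libraries, at 1507 to 1660 against 1764 to 1985 CPM. Of the 6 markers 2 had a higher mean in ALP and MBP and MOBP were at 0. Their part in Micro-like nuclei was not tested either. In OPC-like nuclei NPDC1-AS-1 was at 220, 120 and 273 CPM against 576, 356 and 724 CPM, and the Oligo markers overlapped between groups. InN-like and Pyra-like nuclei overlapped between the groups: InN-like nuclei were at 124, 56.8 and 170 CPM in control and 172, 135 and 244 CPM in ALP libraries, and Pyra-like nuclei at 135, 57.8 and 233 against 173, 164 and 212 CPM. In the other excitatory nuclei, of which 1373 of 2306 came from control 3, NPDC1-AS-1 was at 409, 167 and 518 CPM in control and 399, 399 and 262 CPM in ALP libraries. These classes join clusters that the groups filled differently, and in some single clusters the groups were apart. In cluster 5 of the other excitatory nuclei NPDC1-AS-1 was at 534, 387 and 714 CPM in control and 897, 848 and 937 CPM in ALP libraries, without overlap, and in cluster 20 it was at 150, 52.4 and 187 against 146, 116 and 152 CPM, with overlap. In Pyra-like cluster 14 NPDC1-AS-1 was at 137, 48.1 and 58.4 CPM in control and 275, 206 and 334 CPM in ALP libraries, whereas cluster 10 overlapped. The values of cluster 14 did not overlap, but control 2 had 7 UMIs in 43 nuclei there. Control 3 had only 2 UMIs in 8 nuclei of that cluster, too few to place its level.

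A small set of nuclei held many copies of NPDC1-AS-1. Nuclei with 10 or more UMIs made up 0.584%, 0.619% and 0.191% of the nuclei of control 1, 2 and 3, and 3.64%, 2.59% and 5.08% of those of ALP 1, 2 and 3. Most were Oligo-like, with 399 of 8043 nuclei of that class. With these nuclei left out, the feature was at 319, 215 and 438 CPM in control and 665, 578 and 928 CPM in ALP libraries, and the groups stayed apart.

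The Oligo-like class was made of 6 clusters that the groups filled differently. Clusters 6, 8 and 9 held 25.9%, 22.3% and 25.0% of the control nuclei of the class, and clusters 3 and 4 held 33.8% and 34.9% of the ALP nuclei. Within single clusters NPDC1-AS-1 was higher in every ALP library in all 6 (cluster 29 with 2 control libraries only), with ratios of the group means from 3.36 to 4.79. In cluster 6, for example, the control libraries averaged 888 CPM and the ALP libraries 2987 CPM. The lower features were less regular over clusters. BMERB1-AS-3 was higher in every ALP library in clusters 3, 4, 8 and 29, DNAJC6-AS-2 in clusters 3, 4 and 9, and FTH1-AS-5 in clusters 3 and 4. Such separations are what the features were taken for. Their share among all features was 9.46% in the whole class and was not counted in single clusters. Several rest on few UMIs, with 1, 0 and 1 control UMIs of FTH1-AS-5 in cluster 3 and again in cluster 4. BMERB1-AS-3 had 0 UMIs in the 16 and 26 nuclei of control 1 and 3 in cluster 29. In cluster 6 the mean of BMERB1-AS-3 was lower in ALP, at 21.0 against 25.8 CPM, and in cluster 29 the only UMI of DNAJC6-AS-2 was from control 3. Cluster 6 had 29 nuclei of control 2, with 2 UMIs of BMERB1-AS-3 and 2 of DNAJC6-AS-2, each of which made 55.4 CPM there.

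**Figure D3:**
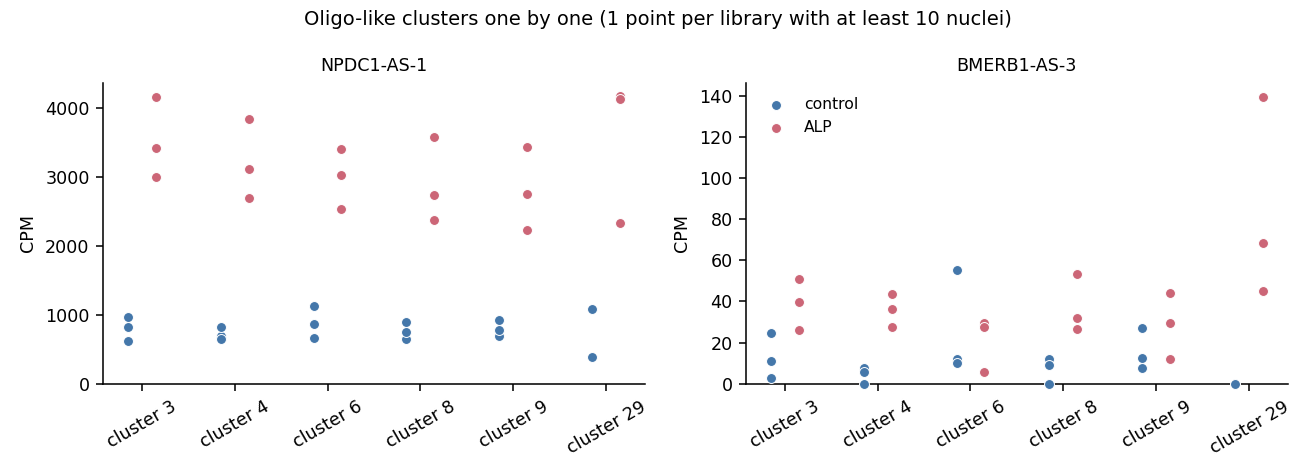
CPM of NPDC1-AS-1 and of BMERB1-AS-3 in the 6 Oligo-like clusters, 1 point per library with at least 10 nuclei. NPDC1-AS-1 is higher in every ALP library in each cluster, while BMERB1-AS-3 overlaps between groups in clusters 6 and 9.

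CELF2-AS-3 was highest in Gran-like and Pyra-like nuclei, at means of 172 and 88.6 CPM. It averaged 18.5 CPM in Astro-like and 14.2 CPM in OPC-like nuclei, close to the 13.0 CPM of InN-like nuclei, and 2.48 CPM in Oligo-like nuclei. Neuronal classes averaged 91.2 CPM and glial classes 10.2 CPM, a difference of 81.1 ± 21.7 CPM (SD, n = 6) that was positive in 6 of 6 libraries. This gave p = 0.0312 in the exact permutation test and 0.0781 adjusted, again the smallest the design allows and not past the threshold. CELF2li1, of the same name stem, was also highest in Gran-like and Pyra-like nuclei. Per 1000 UMIs of CELF2li1, CELF2-AS-3 had 26.7 UMIs in neuronal and 15.1 in glial classes, a difference of 11.6 that was positive in 6 of 6 libraries, with p = 0.0312 in the exact permutation test and 0.125 adjusted over 4 ratios. The classes did not all follow this order, since OPC-like nuclei had a ratio of 28.4, above the 24.8 of Pyra-like and the 17.7 of InN-like nuclei.

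In Gran-like nuclei CELF2-AS-3 was at 116, 177 and 125 CPM in control and 212, 184 and 219 CPM in ALP libraries, with a log2 fold change of 0.71 ± 0.19. In Pyra-like nuclei it was at 58.7, 93.4 and 51.8 CPM in control and 114, 126 and 88.2 CPM in ALP libraries. Control 2 was the highest control library in both classes, and in Pyra-like nuclei it lay above ALP 3. The groups filled the clusters of these classes differently, with 43.2% of control and 20.7% of ALP Pyra-like nuclei in cluster 14, and 19.5% and 5.41% of Gran-like nuclei in cluster 22. Within cluster 1, the larger Gran-like cluster, CELF2-AS-3 was at 109, 179 and 129 CPM in control and 212, 181 and 219 CPM in ALP libraries. Within cluster 10, the largest Pyra-like cluster, it was at 72.5, 113 and 34.5 against 120, 121 and 93.03 CPM. The groups overlapped in Pyra-like cluster 10, as in the whole Pyra-like class. In Gran-like cluster 1 they were apart by a narrow gap only, between 179 CPM in control 2 and 181 CPM in ALP 2. The value of control 2 rested on 38 UMIs in 61 nuclei, so this gap lay within counting error. The gap in the whole Gran-like class, between 177 and 184 CPM in the same 2 libraries, did so too.

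In the other excitatory nuclei CELF2-AS-3 was at 37.2, 49.1 and 45.2 CPM in control and 81.3, 133 and 110 CPM in ALP libraries, its largest change among classes tested, at 1.46 ± 0.27 on the log2 scale. The class is made of clusters of unlike depth that the groups filled differently. It joins cluster 5, with a median of 730 UMIs and 85.9% of its control and 63.9% of its ALP nuclei, and cluster 20, with a median of 4166 UMIs and 14.1% and 36.1%. Within cluster 20 CELF2-AS-3 was at 44.0, 74.8 and 71.5 CPM in control and 111, 185 and 117 CPM in ALP libraries, without overlap. The smaller and deeper cluster thus separated the groups, and the larger one did not. Within cluster 5 it was at 33.9, 0 and 29.7 against 23.4, 51.0 and 67.9 CPM, from 39 control and 16 ALP UMIs. In the class as a whole the summed Endo markers were also higher in the ALP libraries (126 to 192 against 79.5 to 98.3 CPM). Only 2 of these 6 markers had a higher mean in ALP, 1 was higher in every ALP library, and VWF was at 0. The summed OPC, Astro and InN markers were lower in every ALP library, with a higher mean in ALP for 0 of 8, 1 of 7 and 1 of 9 markers. Their part in the result was not tested. In InN-like nuclei the values were 9.02, 12.7 and 9.28 against 14.1, 19.3 and 13.8 CPM. Oligo-like nuclei, in which the other 4 features were called, held 34 UMIs of CELF2-AS-3 in all, and the libraries overlapped between 0 and 5.47 CPM.

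CELF2li1 was at 2149, 1402 and 1318 CPM in control and 2123, 1962 and 2066 CPM in ALP libraries over all kept nuclei. Its log2 fold change was 0.56 ± 0.22, with an adjusted p of 0.174 in edgeR. In Gran-like nuclei CELF2li1 changed by 0.16 ± 0.16 and in Oligo-like nuclei by -0.38 ± 0.20, with adjusted p of 0.669 and 0.300. It passed the edgeR test in 0 of 9 classes, with 0 at an unadjusted p under 0.05, and DESeq2 also called 0.

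DNAJC6-AS-2 was low everywhere and spread over neurons and glia. Its mean over libraries was 11.6 CPM in Oligo-like, 6.25 in OPC-like, 5.43 in Pyra-like, 5.12 in Gran-like and 4.28 CPM in InN-like nuclei. In Endo-like nuclei no UMI was found, which allows up to 3.52 CPM by counting error. Neuronal and glial classes averaged 4.94 and 5.85 CPM, a difference of -0.909 ± 1.14 CPM (SD, n = 6), with p = 0.125 in the exact permutation test and 0.156 adjusted. DNAJC6 itself was highest in Oligo-like nuclei, at 416 CPM, and its neuronal and glial averages of 193 and 202 CPM also differed by less than their spread, with an exact permutation p of 0.312 and 0.469 adjusted over the 3 sense genes with UMIs. The UMIs of DNAJC6-AS-2 per 1000 UMIs of DNAJC6 differed between neuronal and glial classes by -1.50 ± 7.002 (SD, n = 6), with an exact permutation p of 0.656 and 0.875 adjusted.

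In Oligo-like nuclei DNAJC6-AS-2 was at 3.18, 7.54 and 3.36 CPM in control and 20.8, 18.6 and 16.4 CPM in ALP libraries, a log2 fold change of 2.45 ± 0.38. DNAJC6 in the same nuclei was at 501, 399 and 414 CPM in control and 373, 443 and 368 CPM in ALP libraries. The sense gene overlapped between the groups, at -0.07 ± 0.18 on the log2 scale (edgeR adjusted p = 0.855). In Pyra-like nuclei DNAJC6-AS-2 was at 0.559, 2.22 and 0 CPM in control and 9.50, 10.8 and 9.53 CPM in ALP libraries, from 2 and 77 UMIs. The 0 of control 3 came from 51 nuclei and allows, by counting error alone, a level above those of the ALP libraries. DNAJC6 was lower in every ALP library in Pyra-like nuclei, at 240, 209 and 324 against 142, 189 and 119 CPM. Its log2 fold change of -0.49 ± 0.21 did not pass the test (edgeR adjusted p = 0.345). In Gran-like nuclei the antisense feature was at 1.24, 0 and 3.06 CPM in control and 13.2, 6.43 and 6.78 CPM in ALP libraries. Here the 0 of control 2 came from 62 nuclei and also allows a level above the ALP values by counting error. Over all kept nuclei DNAJC6 had a log2 fold change of 0.00 ± 0.16 (edgeR adjusted p = 0.997), and the antisense UMIs per 1000 sense UMIs were 5.05, 8.99 and 10.3 in control and 60.3, 41.0 and 48.1 in ALP libraries.

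BMERB1-AS-3 was present in neurons and in Oligo-like nuclei. It averaged 29.4 CPM in Pyra-like, 29.2 in Gran-like, 24.0 in Oligo-like, 16.1 in InN-like and 13.4 CPM in OPC-like nuclei, and 1.15 CPM in Astro-like nuclei. Its lowest level was 0.406 CPM, in Endo-like nuclei. BMERB1 had the same 3 classes at the top in another order, with 258 CPM in Oligo-like, 250 in Gran-like and 172 in Pyra-like nuclei, and was lowest in Astro-like nuclei, at 21.4 CPM, with 57.4 CPM in Endo-like nuclei. The neuronal classes exceeded the glial classes by 13.5 ± 10.9 CPM for BMERB1-AS-3 (5 of 6 libraries) and by 65.9 ± 14.2 CPM for BMERB1 (6 of 6). In the exact permutation test the adjusted p was 0.104 for BMERB1-AS-3 and 0.0938 for BMERB1.

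In Oligo-like nuclei BMERB1-AS-3 was at 11.6, 18.8 and 7.15 CPM in control and 37.6, 28.9 and 40.0 CPM in ALP libraries. BMERB1 was at 335, 260 and 303 CPM in control and 174, 273 and 203 CPM in ALP libraries of this class. The antisense feature separated the groups, at 1.86 ± 0.33 on the log2 scale, and the sense gene did not, at -0.40 ± 0.20 (edgeR adjusted p = 0.269). Among OPC-like nuclei the level of BMERB1-AS-3 was 4.10, 5.00 and 4.91 CPM in control and 20.1, 16.2 and 29.9 CPM in ALP libraries, from 15 and 44 UMIs. BMERB1 in OPC-like nuclei was at 160, 115 and 129 CPM in control and 92.7, 105 and 97.2 CPM in ALP libraries. Here the sense gene lay lower in every ALP library, but its log2 fold change of -0.43 ± 0.17 did not pass the test (edgeR adjusted p = 0.246). In Gran-like nuclei BMERB1-AS-3 was at 17.6, 9.31 and 2.04 CPM against 58.0, 27.9 and 60.3 CPM, and BMERB1 at 286, 265 and 261 against 223, 247 and 220 CPM.

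BMERB1 had a log2 fold change below 0 in the 8 classes in which it was tested, from -0.52 to -0.10, and passed the test in none. Over all kept nuclei it was at 222, 135 and 172 CPM in control and 136, 163 and 143 CPM in ALP libraries (-0.04 ± 0.18, edgeR adjusted p = 0.914). The antisense UMIs per 1000 UMIs of BMERB1 were 48.2, 88.8 and 22.2 in control and 253, 131 and 258 in ALP libraries. DNAJC6 and BMERB1 together gave 17 gene and class pairs tested by edgeR, with 0 called and 2 at an unadjusted p under 0.05, and DESeq2 also called 0. Over all features, edgeR gave an unadjusted p under 0.05 for 2485 of 11504 in Oligo-like and 1893 of 10408 in Gran-like nuclei. In Endo-like nuclei it did so for 84 of 1540.

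**Figure D4:**
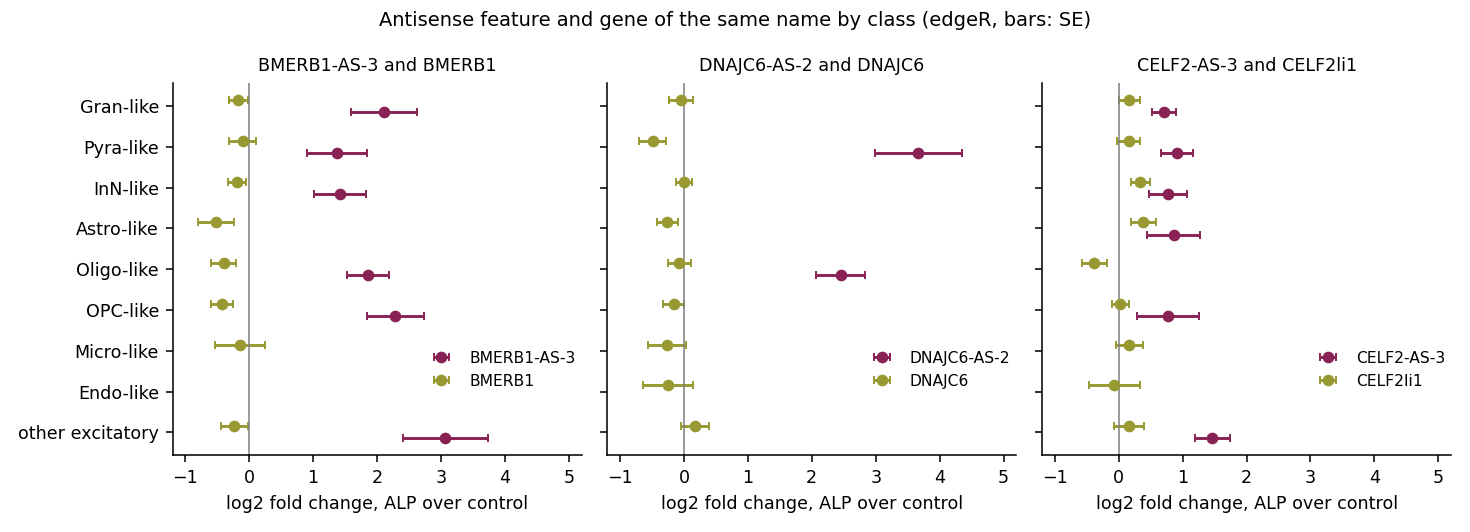
Log2 fold changes of edgeR (ALP over control, bars are SE, n = 3 and 3) by class for BMERB1-AS-3, DNAJC6-AS-2 and CELF2-AS-3 beside BMERB1, DNAJC6 and CELF2li1, for classes in which a feature passed the filter. The antisense points lie above 0, with BMERB1-AS-3 at 1.86 in Oligo-like nuclei, while BMERB1 lies between -0.52 and -0.10.

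Of the 110 UMIs of FTH1-AS-5 in kept nuclei, 84 (76.4%) were in Oligo-like nuclei. This share came from the ALP libraries, with 76 of 94 UMIs there, whereas the control libraries had 8 of 16 and a mean of 1.11 CPM in Pyra-like nuclei against 0.946 CPM in Oligo-like nuclei. In Oligo-like nuclei FTH1-AS-5 had 4, 0 and 4 UMIs in control 1, 2 and 3, and 19, 10 and 47 UMIs in ALP 1, 2 and 3. These are 1.16, 0 and 1.68 CPM against 12.8, 5.16 and 22.6 CPM, where the 0 of control 2 allows up to 11.3 CPM by counting error, above the level of ALP 2. Over the 6 libraries the mean was under 1 CPM in each of the other 7 classes, with single values of up to 5.42 CPM (2 UMIs in Micro-like nuclei of ALP 2). Neuronal and glial classes differed by -1.70 ± 2.22 CPM (SD, n = 6), with an adjusted p of 0.188 in the exact permutation test.

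FTH1li4, which carries the name stem of FTH1 and was chosen after its values were seen, was at 446, 456 and 243 CPM in control and 806, 613 and 832 CPM in ALP Oligo-like nuclei. It rose there by 1.08 ± 0.26 on the log2 scale (edgeR adjusted p = 0.0404), in Gran-like nuclei by 0.87 ± 0.19 (0.0470) and in Micro-like nuclei by 1.11 ± 0.23 (0.0298). FTH1-AS-5 and FTH1li4 thus were both higher in ALP Oligo-like nuclei, whereas the files do not say to which ferritin copy the antisense name belongs, and copies of ferritin genes are near-identical, so their counts are uncertain. FTH1li4 averaged 566 CPM in Oligo-like and 176 CPM in Gran-like nuclei. The summed Oligo markers were higher in every ALP library in Gran-like nuclei (646 to 852 against 200 to 576 CPM), and their part in the rise there was not tested. The calls of FTH1li4 rested on single libraries. In Oligo-like nuclei the adjusted p was 0.129 without control 3, 0.142 without ALP 1 and 0.183 without ALP 3. In Micro-like nuclei it was 0.217, 0.166 and 0.176 without these libraries, and in Gran-like nuclei it was 0.0522 without control 2, 0.161 without control 3, 0.178 without ALP 1, 0.0597 without ALP 2 and 0.242 without ALP 3. With the replicate number as a block the adjusted p was 0.0825, 0.0591 and 0.0774 in Oligo-like, Micro-like and Gran-like nuclei.

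Whether an antisense feature and its sense gene were found in the same nuclei was asked within strata of class and depth. BMERB1-AS-3 and BMERB1 were found together in 481 nuclei, where 411 would be expected if both were spread independently within strata. The log2 odds ratio was 0.82, 0.93 and 0.61 in control and 0.60, 0.51 and 0.10 in ALP libraries, above 0 in 6 of 6. Its mean was 0.59 ± 0.29 (SD, n = 6), with p = 0.0312 in the exact sign-flip permutation test and 0.0938 adjusted over the 3 features that could be tested. For DNAJC6-AS-2 and DNAJC6 there were 171 nuclei with both and 139 expected, with log2 odds ratios of 2.20, 0.87 and 2.10 in control and 0.80, 0.27 and -0.01 in ALP libraries. The mean of 1.04 ± 0.92 had p = 0.0625 in the exact permutation test and 0.0938 adjusted. Neither passed the threshold, and both were lowest in ALP 3. With 10 depth strata, with class alone, or with nuclei above 2500 genes included, DNAJC6-AS-2 was above 0 in 6 of 6 libraries too and both features had an adjusted exact permutation p of 0.0469. The unadjusted exact permutation p of BMERB1-AS-3 was 0.0312 in each of these settings, as before. Its adjusted p fell only because that of DNAJC6-AS-2 also reached 0.0312 before adjustment, so BMERB1-AS-3 gained no support of its own.

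**Figure D5:**
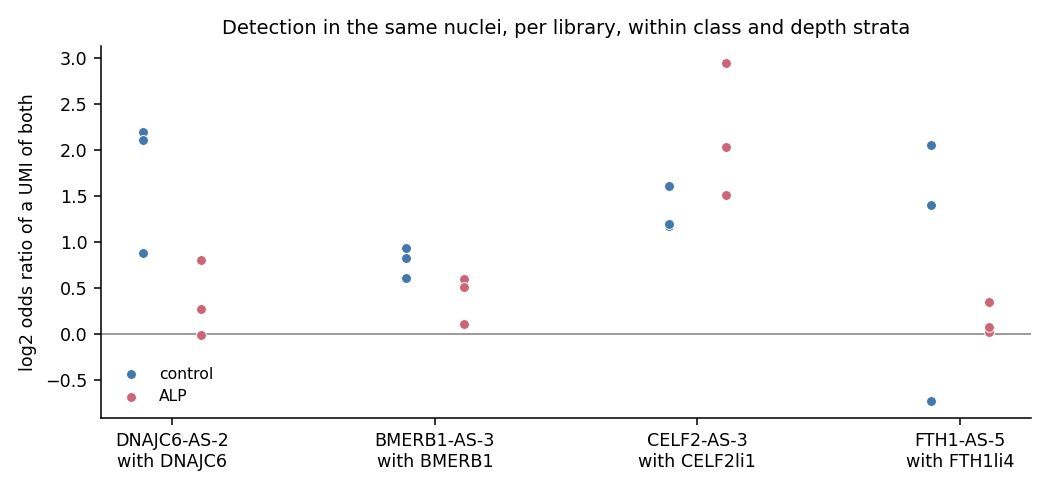
Log2 odds ratio of finding the antisense feature in nuclei with against without the sense gene, within strata of class and depth, 1 point per library. The 6 values of BMERB1-AS-3 lie between 0.10 and 0.93, and those of DNAJC6-AS-2 between -0.01 and 2.20.

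CELF2-AS-3 was found with CELF2 in 3 nuclei and with CELF2li1 in 1974 nuclei, where 1918 were expected. The log2 odds ratio with CELF2li1 was 1.74 ± 0.67 (SD, n = 6), above 0 in 6 of 6 libraries, with an exact permutation p of 0.0312 and 0.0625 adjusted over the 2 features of related name. FTH1-AS-5 and FTH1li4 were found together in 62 nuclei, with 55.7 expected, and had p = 0.281 in the same exact test. Co-detection of the antisense features with each other did not pass the test for any of 10 pairs, where the lowest exact permutation p was 0.125 and the lowest adjusted p 0.742. The smallest p that 6 libraries allow is 0.0312, so a single pair could not pass after adjustment over 10 pairs. Absence of co-detection is therefore not shown.

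Most of the 15 other antisense features of the same genes were not higher in ALP. NPDC1 has no other, and those of the other genes gave 11 feature and class pairs tested, of which 10 had a log2 fold change below 0 (median -0.79). By edgeR 1 passed, 5 had an unadjusted p under 0.05, and over the sum of all kept nuclei 5 of 7 tested were below 0 and 0 were called, with 3 at an unadjusted p under 0.05, while DESeq2 called 2 there, CELF2-AS-5 and BMERB1-AS-5, both lower in ALP. The median of all antisense-named features was -0.57 in that sum. Counts at an unadjusted p are to be read beside those over all features given above. BMERB1-AS-5 fell in Oligo-like nuclei, with 22, 4 and 24 UMIs in control and 0, 2 and 2 UMIs in ALP libraries, a log2 fold change of -3.42 ± 0.67 (edgeR adjusted p = 0.0202). In these same nuclei BMERB1-AS-3 was the higher in ALP. Of the 1807 antisense-named features tested there, 246 were called lower, and their median log2 fold change was -0.52. The call of BMERB1-AS-5 was lost without control 3 (adjusted p = 0.109), ALP 1 (0.0987) or ALP 3 (0.130).

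For the other genes the features with most UMIs did not pass the edgeR test in any class. CELF2-AS-5 in Gran-like nuclei was at 21.0, 32.6 and 48.9 CPM in control and 6.11, 12.1 and 9.04 CPM in ALP libraries, without overlap, at -1.75 ± 0.41 on the log2 scale (edgeR adjusted p = 0.0540). CELF2-AS-1 was at -0.79 in Gran-like nuclei (edgeR adjusted p = 0.182) and at 0.04 over all kept nuclei. DNAJC6-AS-1 was at 16.9, 19.4 and 30.9 CPM in control and 10.2, 17.8 and 8.74 CPM in ALP libraries over all kept nuclei, at -0.67 ± 0.31 (edgeR adjusted p = 0.230). FTH1-AS-2 and FTH1-AS-4, with 98 and 47 UMIs in kept nuclei, did not pass the filter on low counts in any class. FTH1-AS-2 was lower in every ALP library in Oligo-like nuclei, at 8.67, 3.77 and 11.8 CPM in control and 1.34, 2.58 and 3.37 CPM in ALP libraries. CELF2-AS-5 thus lay lower in ALP Gran-like nuclei, where CELF2-AS-3 lay higher. Of the 1579 antisense-named features tested in Gran-like nuclei, 103 were called lower, and their median log2 fold change was -0.57.

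Genes that work with the proteins of the sense genes were taken from lists made by name. Of the 14 genes of ferritin and cellular iron, 9 were tested in 59 gene and class pairs, with a median log2 fold change of 0.19. TF, transferrin, which carries iron and is made by oligodendrocytes in the brain, gave the 3 calls of this list. In Oligo-like nuclei TF was at 555, 407 and 408 CPM in control and 911, 838 and 1114 CPM in ALP libraries and rose by 1.14 on the log2 scale (edgeR adjusted p = 0.0172). It also rose by 1.24 in both Gran-like and OPC-like nuclei (edgeR adjusted p = 0.0385 and 0.0398), beside the Oligo marker levels given above. In Oligo-like nuclei the adjusted p of TF was 0.0841 without control 3, 0.0891 without ALP 1 and 0.123 without ALP 3. In OPC-like nuclei it was 0.0746, 0.171 and 0.246 without these, and in Gran-like nuclei 0.0839, 0.139 and 0.230, as well as 0.0615 without ALP 2. A block for the replicate number gave 0.0536, 0.0633 and 0.0620 in Oligo-like, OPC-like and Gran-like nuclei.

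Of the 11 CELF, MBNL and RBFOX regulators of splicing, 8 were tested in 63 pairs, with a median of 0.05. CELF1, a relative of CELF2, fell in Oligo-like nuclei from 125, 98.0 and 124 CPM in control to 47.7, 76.8 and 63.5 CPM in ALP libraries, at -0.82 ± 0.20 (edgeR adjusted p = 0.0401). This call was lost without control 1 (0.101), control 3 (0.145), ALP 1 (0.201) or ALP 3 (0.195), and the block gave 0.0910. The clathrin list, with the partners of auxilin, had 0 of 99 pairs called by edgeR and 10 at an unadjusted p under 0.05 (median -0.03), a p common among all features, as given above. The bMERB domain and RAB genes had 0 of 48 called and 2 at that p (median -0.04), and the cell cycle partners of NPDC1 0 of 8 called and 0 at that p (median 0.13). DESeq2 called 4 pairs over all the lists, those of TF and CELF1.

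The genes next to the sense genes in the RefSeq assembly TupChi_1.0 were also looked up, since antisense names give no position in these files. The 4 neighbours of NPDC1 are ENTPD2, SAPCD2, FUT7 and ABCA2, and gave 10 gene and class pairs tested, with 0 called by edgeR and 2 at an unadjusted p under 0.05. The neighbours of CELF2 gave 0 of 9 with 3 at that p, those of DNAJC6 0 of 22, of BMERB1 0 of 18 and of FTH1 0 of 5, the last 3 with 0 at that p. DESeq2 called 0 of these neighbours, and the unadjusted counts stand beside the many over all features given above.

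The features with the most like pattern over 48 sums of library and class, by Pearson's r of log2(CPM + 1), were as follows. The 48 points share libraries and classes, so r is a description. For NPDC1-AS-1 they were APOD, a lipid carrier of glia (r = 0.886), EFNA1 (0.872) and FTH1li4 (0.871), among 15093 features. For CELF2-AS-3 they were PPM1E (0.844), the potassium channel gene KCNMA1 (0.838) and SPEG (0.831). For DNAJC6-AS-2 they were NKTR-AS-4, MUTYH and BMERB1-AS-3, at 0.752, 0.712 and 0.658, and for BMERB1-AS-3 they were RNMT, RALGPS2 and DDX60L-AS-2, at 0.748, 0.741 and 0.737. For FTH1-AS-5 r was 0.655 with LINC-YD021-1, 0.630 with TMEM125 and 0.608 with ABCA2. The highest r was largest for NPDC1-AS-1 and CELF2-AS-3, the features with most UMIs, and smallest for FTH1-AS-5, with fewest. It was not larger for BMERB1-AS-3 than for DNAJC6-AS-2, which had fewer UMIs.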

How the data were processed

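Raw UMI counts per feature and nucleus barcode were deposited by the authors for 3 ALP and 3 control TSs, in matrices from Cell Ranger with the TreeshrewDB reference. The submitters' processing notes name version 3.1.0 and the matrix headers 6.1.2. The genome build and the use of strand and intronic reads were not given in the sources used here. Without strand, reads of a gene and its antisense partner cannot be told apart. The files hold no coordinates.

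Nuclei passed with 200 to 2500 genes and no more than 5% mitochondrial UMIs (28233 without the 6 nuclei exactly at a limit). They were scaled to 10000 UMIs and clustered with scanpy 1.11.5 and leidenalg 0.10.2 (2000 variable features, 30 principal components, 20 neighbours, resolution 2), with values clipped at 10. A cluster was named from at least 3 markers present in at least 3% of its nuclei at a fold of at least 1.5, thresholds set after seeing the data, so the classes are rebuilt and may differ from those of the study. Doublets, at 0.8% per 1000 barcodes, were marked but kept. At most 0.465% of barcodes were shared by any pair of libraries. Total UMIs per library set the precision, and intervals and limits for 0 counts cover counting error only.

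Sums of UMIs by library and class, each over 10 nuclei or more, were fitted in R 4.3.3 by the quasi-likelihood test of edgeR 4.0.16 (TMM, minimum count 10) over all features of a class, with Benjamini-Hochberg adjustment. On simulated counts of Oligo-like nuclei with 11146 features, 23 of 100 log2 changes of 1 and 91 of 100 of 2 were recovered, with 8 false calls. DESeq2 1.42.0 was an alternative, as were another normalization, no filter, a replicate block, leaving out each library, removed doublets, resolution 1, clustering with all features and no upper limit on genes. Differences within libraries were tested with exact sign-flip permutation tests (scipy 1.17.1). Values in single clusters of a class were an alternative chosen after seeing the data. Odds ratios were pooled by Mantel-Haenszel with 0.5 added. The p-values measure the spread between libraries of 1 animal each.

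The 5 features, gene lists and alternatives were chosen with earlier results of these data known. Named were these features, their sense genes, other antisense features of these genes that were called and otherwise the 2 with most UMIs per gene, partner genes that were called, and the 3 features of most like pattern. One of the Oligo markers is not reported here by itself. Lists of partner genes were made by name, and RefSeq tables served for neighbours only.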

Additional observations from a re-analysis of the deposited data

Results flagged for a closer look

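Nuclei with more than 2500 genes, 9344 barcodes that the comparisons above leave out, also held these features. In them CELF2-AS-3 was at 113 CPM in the lowest ALP library and 77.6 CPM in the highest control library. DNAJC6-AS-2 was at 7.07 CPM in the lowest ALP library and 5.12 CPM in the highest control library, and BMERB1-AS-3 at 20.5 and 12.2 CPM. FTH1-AS-5 was at 0.464 and 0.321 CPM in the same order, from few UMIs. Such separations are what the features were taken for, and their share among all features was not counted in these nuclei. NPDC1-AS-1 overlapped between the groups in these nuclei, at 236, 87.7 and 137 CPM in control and 220, 139 and 333 CPM in ALP libraries. The log2 ratios of the group means were 0.59 for NPDC1-AS-1, 0.77 for CELF2-AS-3, 1.44 for DNAJC6-AS-2 and 1.54 for FTH1-AS-5, smaller than in kept nuclei. The groups were already known to differ in these features. With no upper limit these nuclei were clustered and named together with the kept ones. Levels by class were not set out for them alone. In that setting the largest Pyra-like cluster had 2743 nuclei at a median of 7536 UMIs, and the largest InN-like one 1699 at 5503. An unnamed cluster of 1648 nuclei had a median of 9770 UMIs, while the Oligo-like clusters had medians of 1105 to 1759 UMIs. The part of class in these ratios was not tested.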

How the results depend on the processing

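Leaving out each library in turn gave log2 fold changes over all kept nuclei of 1.31 to 1.83 for NPDC1-AS-1, 1.15 to 1.38 for CELF2-AS-3, 2.35 to 2.98 for DNAJC6-AS-2, 1.67 to 2.34 for BMERB1-AS-3 and 2.05 to 3.23 for FTH1-AS-5. The features were taken for this difference in the same libraries, so these ranges describe its spread and support nothing. With no upper limit on genes CELF2-AS-3 was at 0.93 and DNAJC6-AS-2 at 1.97. The 9 calls of the 5 features became 22 with no filter on low counts and 1 to 12 with a library left out. For the other antisense features the 1 call became 2 with no filter or no upper limit, and 0 to 2 with a library left out, and for the partner genes the 4 calls became 0 to 5. Replicate numbers do not pair the animals: over all kept nuclei the correlations of the same number were -0.11, -0.06 and -0.09. The replicate block left 8 calls for the 5 features and 0 for the partner genes, and Oligo-like nuclei had 153 features called in it against 572, 468 by DESeq2, 1047 without control 2 and 1064 without ALP 2. In co-detection, DNAJC6-AS-2 was at 0.95 with 10 depth strata, 1.12 with class alone and 0.80 with no upper limit, each then past the threshold. BMERB1-AS-3 was at 0.55, 0.75 and 0.59 with the same unadjusted p as before. It crossed the threshold only through the adjustment, when DNAJC6-AS-2 reached that p too. CELF2-AS-3 with CELF2 ranged from -0.49 to 0.13, reversed without ALP 2, and rests on 3 nuclei. DNAJC6 reversed to 0.51 percentage points higher in neuronal classes as a share of nuclei thinned to 1000 UMIs. Beyond this step of the adjustment, the cause of these changes was not tested. Other comparisons that answer a question, 219 of them, kept their direction and side of the threshold. The exact permutation tests of 5 libraries cannot give a p under 0.0625. With 1 library left out, their side of the threshold was thus fixed in advance.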

Other observations

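In classes outside the comparisons NPDC1-AS-1 was also high. Mural and fibroblast-like nuclei, of which there were 105, had 1622, 1023 and 7776 CPM in control and 2127, 3671 and 5902 CPM in ALP libraries. The groups overlapped, and 1 nucleus of control 3 alone held 372 UMIs. Clusters that stayed unnamed, with 2240 nuclei, had 757, 941 and 856 CPM in control and 1924, 1039 and 1857 CPM in ALP libraries, without overlap. The share of all features that separate the groups in the unnamed clusters was not counted.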
